A study of Mus musculus with 59 samples.

Results

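Serous epithelial ovarian cancer is staged by how far the tumor has spread. In the usual human scheme stage I is confined to the ovaries, stage II reaches other pelvic organs, stage III the peritoneum and stage IV distant sites. Spread across the peritoneum involves loss of contacts between tumor cells, remodeling of collagen and elastin around them, and exchange with fibroblasts, smooth muscle, mesothelium and fat of the tissues reached. The comparison described here sets 11 primary mouse tumors labelled stage IV against 7 labelled stage IB, IIA or IIB. They are 18 of the 59 arrays in the series and 18 of its 26 primary tumors of the published set. The choice was made by stage labels, with earlier results of these data known.

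All 18 tumors arose in the ovary of FVB/NJ mice that carried the K18 tg allele, a Cre-dependent transgene under the keratin 18 promoter whose product inactivates the retinoblastoma proteins in epithelium. They were started by an adenovirus carrying Cre, injected around the ovary. Ages are not in the labels, although the study lists the time from induction to end point for some of these tumors, and the criteria by which stages were assigned are not given in the sources used here. The stage IV group held 8 tumors with the label p53 fl/fl, called p53-deletion here, all of them also deficient in Brca1, and 3 with p53 m/fl, called p53-missense, of which 1 was deficient in Brca1 and 2 in Brca2. The stage I-II group held 5 p53-missense tumors, 3 of them IIA and 2 IIB, with 2 deficient in Brca1 and 3 in Brca2. Its other 2 tumors were p53-deletion and both stage IB. Of these, R5843 was deficient in Brca1, and R5838 was the only tumor of the 18 with no Brca allele in its label. Stage IB and p53 deletion therefore cannot be told apart within the early group, and p53 genotype was a term in the comparison. The 2 stage III and 6 unstaged tumors of the set were left out.

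Values were log2 robust multi-array average (RMA) signals, on which a difference of 1 is a doubling. The medians of the 18 arrays lay between 7.30 and 7.50. Krt18, the keratin whose promoter drives the transgene and a marker of simple epithelium, ran from 13.35 to 13.76 in stage IV and from 13.34 to 13.76 in stage I-II, above the 11.89 to 12.44 of 3 normal ovarian epithelium samples. Brca1 values were 9.33 to 10.76 in the 12 Brca1-deficient tumors, within that same range in the Brca2-deficient tumors, and 10.74 in R5838. Whether its probe set lies in the deleted part of the gene was not tested, so these values check no label. Each tumor has a separate identifier, and nothing in the labels says more about how the animals were related.

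No gene passed the test for a difference between stage IV and stage I-II tumors. Of 18193 genes, 0 were higher and 0 lower at an adjusted p under 0.05 (limma with Benjamini-Hochberg adjustment, 0% called, smallest adjusted p 0.531). At an unadjusted p under 0.05 there were 953 genes (5.24%), 385 of them with higher values in stage IV (2.12%) and 568 with lower values (3.12%). The median log2 difference over all genes was -0.02. The 95% interval of a gene's difference reached 0.321 to either side in the median gene. Leaving out 1 tumor at a time gave between 621 and 1324 genes at the unadjusted threshold, 621 without tumor 21981 and 627 without R5843, and 0 after adjustment each time.

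Whole profiles likewise did not separate by stage. Stage accounted for 6.495% of the variance over all 45037 probe sets after p53 genotype (pseudo-F 1.14). Exchanging stage labels within p53 genotype in all 2520 possible ways gave p = 0.261 (exact permutation test, one-sided, smallest possible p 0.000397). The array closest to a stage IV tumor was another stage IV tumor in 7 of 11 cases, and the array closest to a stage I-II tumor was another stage I-II tumor in 1 of 7, 24661, whose closest array was 25604. For any tumor, more of the other arrays are stage IV than stage I-II, so these counts are a description only. The closest array had the same stage class for 8 of the 18 tumors and the same p53 genotype for 11. The smallest distance among the 18 was a root mean square difference of 0.362 between R5817, stage IV, and 25604, stage IIB. Along the first component, 23.3% of the variance, the extremes were R5855 and 23172, one of each stage class.

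**Figure D1:**
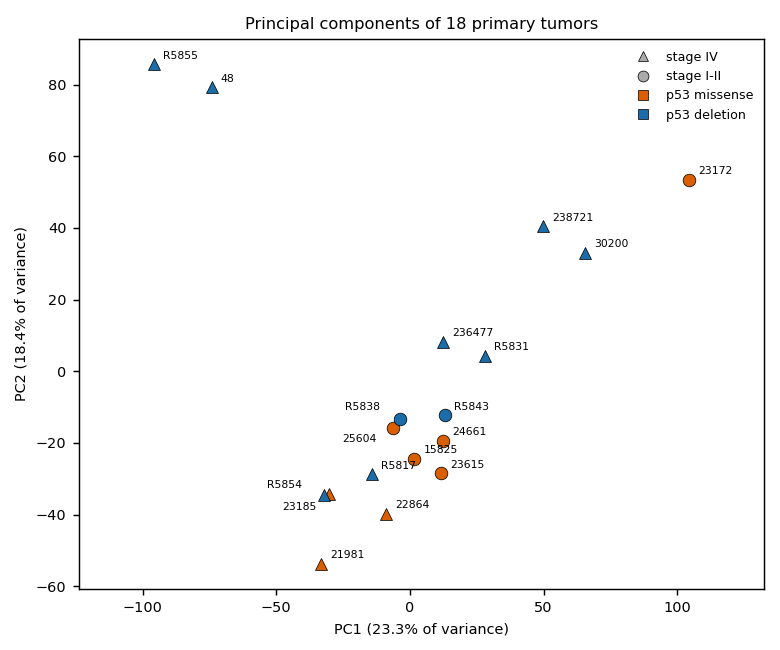
Scores of the 18 tumors on the first component (x axis, 23.3% of variance) and the second (y axis, 18.4%), from centered log2 values of all 45037 probe sets, with triangles for stage IV, circles for stage I-II and color for p53 genotype. Of the stage I-II tumors, 6 of 7 lie in the middle of the plot among stage IV tumors and 23172 lies at the right edge, and the stage IV tumors R5855 and 48 lie apart at the upper left.

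The genes with the smallest p on the higher side were led by Ubr2, a ubiquitin ligase that recognizes N-terminal degradation signals. Its value was 10.03 at the lowest, 10.36 at the median and 10.79 at the highest in stage IV, and 9.32, 9.81 and 10.20 in stage I-II. In 8 of 11 stage IV tumors it was above every early tumor, and the groups overlapped in the other 3. The difference was 0.70 (SE 0.13, 95% interval 0.43 to 0.97, adjusted p = 0.531 by limma). Ecpas, an adaptor of the proteasome, had values of 10.89 to 11.41 with a median of 11.19 in stage IV and of 10.71 to 10.96 with a median of 10.87 in stage I-II. Of the stage IV tumors, 10 of 11 lay above the whole early group, although its difference was only 0.36 (SE 0.08, adjusted p = 0.691). The same held in 10 of 11 for Mcoln1, a cation channel of the lysosome, at 9.85, 10.29 and 10.59 in stage IV against 9.49, 9.66 and 9.96. Its difference was 0.51 (SE 0.11, adjusted p = 0.908).

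The other 9 genes of that side had adjusted p = 0.909 and overlapping groups. Hdac6, a cytoplasmic deacetylase, had a difference of 0.40, Zswim8, a ubiquitin ligase subunit, 0.46, Atp13a1, an ATPase of the endoplasmic reticulum, 0.27, and Zfp653 0.39. Samhd1, which degrades deoxynucleotides, was at 0.41 and Abcg5, a sterol transporter subunit, at 0.46. Every Abcg5 value, 5.19 to 6.64, lay below the lowest array median, 7.30. Larger differences belonged to genes carried by few tumors. Cdh17, a cadherin of intestinal epithelium, ranged from 5.09 to 8.30 with a median of 5.59 in stage IV and from 4.91 to 6.44 with a median of 5.16 in stage I-II. Only the p53-missense tumors 21981 at 8.30, 22864 at 7.42 and 23185 at 6.49 exceeded the early group. Accordingly the Cdh17 difference was 1.95 within p53-missense tumors and 0.32 within p53-deletion tumors (interaction p = 0.00928 before adjustment, 0.791 after it by limma). High Cdh17 was not limited to p53-missense tumors. In the 2 stage III tumors, left out of the comparison and both p53-deletion, it was higher still, at 8.43 and 8.51. The 6 unstaged tumors, also p53-deletion, ran from 5.15 to 7.88. For Tns4, a protein of focal adhesions, and Necab3, a calcium-binding protein, the differences were 0.87 and 0.71, and 22864 had the highest value of each.

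On the lower side stood several genes of extracellular matrix and muscle. Col3a1, a fibrillar collagen chain, measured 8.56 at the lowest, 10.72 at the median and 12.09 at the highest in stage IV and 10.59, 11.75 and 12.73 in stage I-II. In 5 of 11 stage IV tumors it lay below every early tumor, while 238721 and 30200, at 11.93 and 12.09, exceeded the early median. The difference was -1.68 (SE 0.40, 95% interval -2.51 to -0.84, adjusted p = 0.909). Eln, elastin, ran from 9.05 to 11.19 with a median of 9.97 in stage IV and from 9.98 to 11.63 with a median of 11.27 in stage I-II, with 7 of 11 stage IV tumors below the early group. Its difference was -1.24 (SE 0.32, adjusted p = 0.909). Ldb3, a Z-disc protein of muscle, had values of 5.32, 6.45 and 7.52 against 6.13, 7.59 and 7.94, a difference of -1.44 (SE 0.30, adjusted p = 0.691). In every one of these genes the groups overlapped, and R5838 and R5843 held the highest values of all 18 tumors.

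Plppr1, a membrane protein related to lipid phosphatases, had values of 4.45, 4.94 and 5.45 in stage IV against 4.81, 5.64 and 6.47, and a difference of -0.85 (SE 0.17, adjusted p = 0.531). Mis18a, which helps load the centromeric histone, showed a difference of -0.51 with nearly equal group medians, 10.19 in stage IV and 10.17 in stage I-II, because the comparison is made within p53 genotype. Its 3 lowest values were the 3 p53-missense stage IV tumors. Get1, part of the receptor that inserts tail-anchored proteins, was at 11.25 to 11.86 in stage IV and 11.71 to 12.17 in stage I-II, with 8 of 11 below the early group and a difference of -0.42. Emp2, an epithelial membrane protein, followed with -0.76 and 6 of 11 below. Ppp1r14a, an inhibitor of smooth muscle myosin phosphatase, was at -0.44, Senp7, a SUMO protease, at -0.49, Odf3, of the sperm tail, at -0.31, and the homeobox genes Sebox and Msx3 at -0.25 and -0.29. None passed, and all these groups overlapped. Every value of Plppr1, Ppp1r14a, Odf3, Sebox and Msx3 in the 18 tumors lay below the lowest array median, 7.30.

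**Figure D2:**
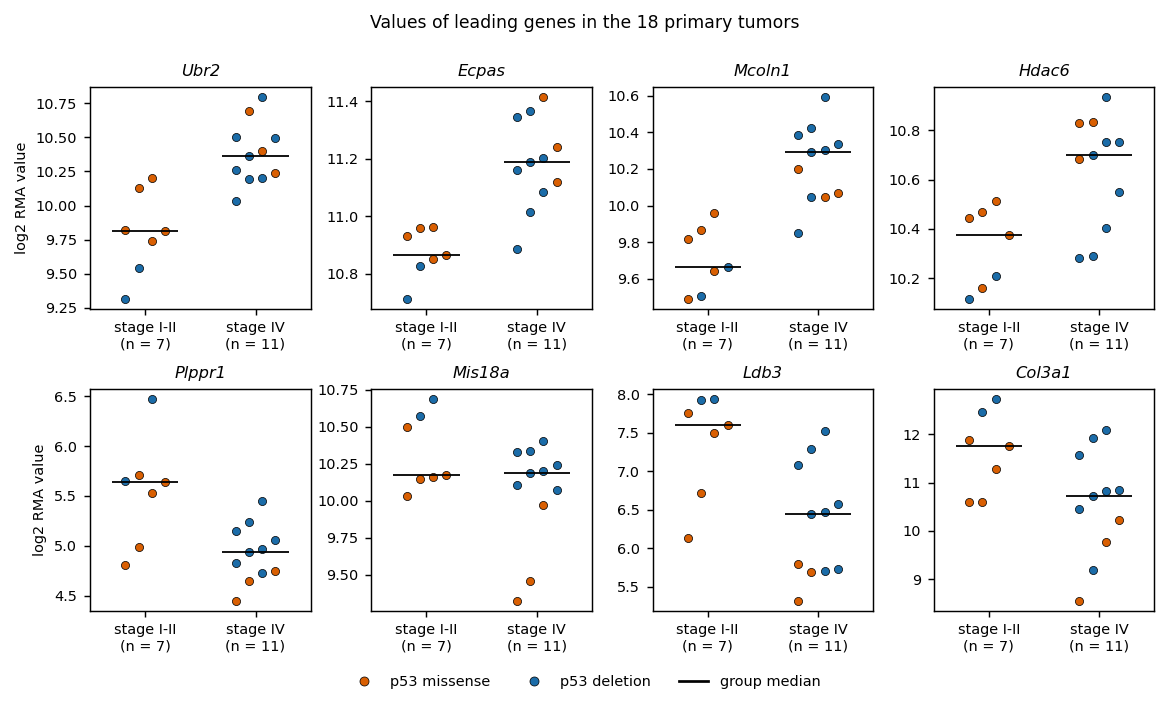
Log2 RMA value (y axis) of 8 leading genes in each of 7 stage I-II and 11 stage IV tumors, colored by p53 genotype, with a line at each group's median. For Ecpas and Mcoln1, 10 of 11 stage IV points lie above all early points, and for Col3a1 the p53-deletion early tumors are the highest of all.

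Within each p53 genotype the comparison was likewise without a called gene. Among p53-missense tumors, 3 stage IV against 5 stage II, 0 genes passed (0%) and 860 (4.73%) had an unadjusted p under 0.05. Among p53-deletion tumors, 8 stage IV against 2 stage IB, 0 passed (0%) and 1086 (5.97%) were under 0.05, with a smallest adjusted p of 0.117. The stage difference differed between the genotypes for 0 genes (interaction term, 0%, 987 or 5.43% before adjustment). The smallest adjusted p of that test, 0.159, was that of Hoxd3, a homeobox gene, with 1.10 among p53-missense and -0.87 among p53-deletion tumors.

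These counts turned on 1 or 2 tumors. Within p53 deletion, 42 genes passed without R5843 and 24 without R5838, with 0 genes in common, and 2 passed without 23615 and 1 without 22864, which are p53-missense tumors that enter only through the shared spread. With 1 stage IB tumor left, that tumor is taken to vary like the other groups. Within p53 missense, 6 passed without 23185, 2 without 25604 and 1 without 22864. For the interaction the counts were 22 without R5843, 11 without R5838, 2 without 23185 and 1 without 22864. The differences of the 24 leading genes kept 1 direction in both genotypes, which their choice by small p favored.

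**Figure D3:**
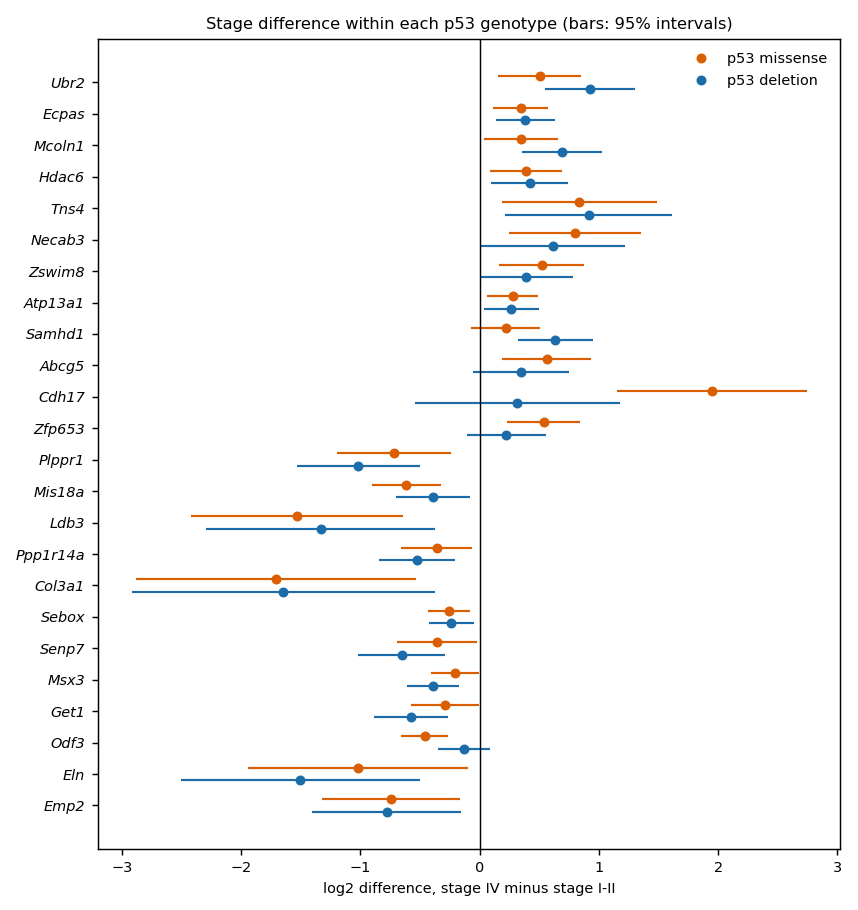
Log2 difference of stage IV minus stage I-II (x axis) for the 24 leading genes within p53-missense tumors (3 against 5) and p53-deletion tumors (8 against 2), with 95% intervals as bars. The intervals of the genotypes overlap for all 24 genes, and the estimates lie farthest apart for Cdh17, at 1.95 and 0.32.

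Gene lists of pathways and cell types were described by their counts and medians, since no member of any of the 35 lists passed the test. Members named from here on, other than Mki67, Brca1, Brca2, Rb1, Cdkn2a and Cpb1, had an unadjusted p under 0.05, and all but the first 5 of those exceptions were picked after their values were seen. Of 537 measured list genes, 39 were under that threshold, where 5.24% of all genes were. Of the 39, 14 were also under it without R5838. Over all genes, 953 were under it with all tumors and 1137 without R5838, and how many were shared was not counted. The median log2 difference over all genes was -0.02, with 55.7% below 0. Mitosis genes had a median of 0.03, with 0 of 27 under the unadjusted threshold, and Mki67, a marker of cycling cells, differed by 0.06 (95% interval -0.32 to 0.43). Replication and E2F targets had a median of 0.03, with 1 of 29 under it, Cdc45 at -0.32. Within p53-missense tumors the medians of these 2 lists were 0.17 and 0.17 and Mki67 was at 0.36, and within p53-deletion tumors they were -0.16 and -0.12 and Mki67 was at -0.30. The p53 targets had a median of 0.01, and Ccng1, a cyclin induced by p53, was at -0.22. Homologous recombination genes had a median of 0.13 (0.24 within p53 missense and 0.01 within p53 deletion), with 20 of 24 above 0. Among these Blm, a helicase, was at 0.51 (unadjusted p = 0.0449), Brca2 at 0.26 (95% interval -0.27 to 0.79) and Brca1 at 0.01. Rb1 and Cdkn2a were both at -0.15.

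Epithelial junction genes had a median of -0.05 over 25 members. Spint1, a protease inhibitor of epithelium, was at 0.81 and Jup, plakoglobin of desmosomes and adherens junctions, at -0.45. Epithelial-mesenchymal transition genes were below 0 in 14 of 18 with a median of -0.21, and 1 member, the repressor Zeb2, was under the unadjusted threshold at -0.78. Among serous markers, 13 of 18 were below 0, with Folr1, a folate receptor, at -0.72 and Msln, mesothelin, at -1.23. Collagen and matrix genes were below 0 in 19 of 23 with a median of -0.25, yet apart from Col3a1 only the crosslinking enzyme Loxl1, at -1.02, was under the unadjusted threshold. Matrix proteases and inhibitors were split, with 11 above and 12 below 0 and a median of -0.09 (-0.33 within p53 missense and 0.37 within p53 deletion), and 1 of the 23, the gelatinase Mmp2, was under the threshold at -0.82.

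Hypoxia and glycolysis genes were above 0 in 20 of 25 with a median of 0.14. Hk2, the hexokinase of glycolytic tumors, had values of 11.2 to 12.3 with a median of 11.8 in stage IV and of 10.1 to 11.9 with a median of 11.1 in stage I-II. The Hk2 groups overlapped. Its difference was 0.75 over all tumors, 1.58 among p53-deletion tumors and 0.03 among p53-missense tumors, and it went to 0.51 (unadjusted p = 0.0928) without R5838. Adm, a vasodilator peptide induced by low oxygen, showed 0.71 over all tumors, with 1.38 and 0.15 in the genotypes, and the third member under the unadjusted threshold, the aldolase Aldoc, was at -0.34. The median of the list was 0.32 within p53 deletion and -0.11 within p53 missense. Over all tumors but 1 it was 0.05 both without R5838 and without R5843.

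Immune and signaling lists held few members under the threshold. Cytokines and chemokines were below 0 in 22 of 29, with a median of -0.16, and the monocyte growth factor Csf1 was at -0.59, the stromal chemokine Cxcl12 at -1.24 and the monocyte attractant Ccl8 at -1.20. Without R5838, Ccl8 was at -0.69 (unadjusted p = 0.0810), Cxcl12 at -0.86 (unadjusted p = 0.109) and Csf1 at -0.81. The median of the cytokine list was -0.47 within p53 missense and 0.07 within p53 deletion. Interferon-stimulated genes were above 0 in 15 of 20 with a median of 0.18, and Stat2, which carries the type I interferon signal, was at 0.54. Macrophage markers were below 0 in 14 of 16 with a median of -0.22, which was -0.43 within p53 missense and 0.08 within p53 deletion, and 0 of 16 were under the unadjusted threshold. T and NK cell markers had a median of 0.02.

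Markers of other cell types had the lowest medians of all lists. Smooth muscle and myofibroblast markers were at -0.70, fibroblast markers at -0.74 and adipocyte markers at -0.78. In whole tumor pieces, fewer cells of a type and less RNA in each cell cannot be told apart. Of 11 smooth muscle markers, 7 had lower values at the unadjusted threshold, where 3.12% of all genes were. Actg2, the enteric smooth muscle actin, ran from 5.12 to 7.45 with a median of 5.81 in stage IV and from 5.27 to 11.76 with a median of 6.82 in stage I-II. Its 2 highest values were in R5838, at 11.76, and 15825, at 9.72, and the other early tumors overlapped with stage IV. The Actg2 difference was -2.13 (unadjusted p = 0.0135) with all tumors, -1.01 (unadjusted p = 0.136) without R5838 and -0.52 without both.

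Myh11, the heavy chain of smooth muscle myosin, behaved alike, with -1.61 in all tumors and -0.36 without R5838 and 15825. Acta2 and Tagln, actin and transgelin of myofibroblasts, kept their differences without these tumors. Acta2 was at 9.76 to 12.60 with a median of 12.04 in stage IV and 11.996 to 12.86 with a median of 12.51 in stage I-II. Its difference was -1.04 with all tumors, and -1.11 without R5838 and 15825 (unadjusted p = 0.00963). Tagln showed -1.14 with all tumors and -0.99 without them.

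Summed over each list, R5838, stage IB, had the highest mean level of smooth muscle markers (10.47), fibroblast markers (10.26), adipocyte markers (9.401) and B and plasma cell markers (7.28) of the 18 tumors. Tumor 15825, stage IIB, came next in smooth muscle (9.42) and adipocyte markers (8.27). Stage IV tumors ran from 7.88 to 8.99 for smooth muscle, 7.41 to 9.94 for fibroblast and 5.87 to 7.51 for adipocyte markers. The remaining early tumors lay at 8.34 to 8.97, 8.09 to 9.06 and 5.98 to 6.29, within those ranges.

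Without R5838 the list medians were -0.27 for smooth muscle and myofibroblast with 2 of 11 lower at the unadjusted threshold, -0.38 for fibroblast with 1 of 11, and -0.23 for adipocyte with 0 of 8, where 3.70% of all genes were lower at that threshold. Without R5838 and 15825, a choice made after seeing the data, the medians were -0.26 for smooth muscle and myofibroblast, -0.15 for fibroblast and -0.07 for adipocyte. Without R5843 they moved the other way, with fibroblast at -1.30 and 6 of 11 lower, and adipocyte at -1.09 and 5 of 8, where 2.20% of all genes were. Leptin, Lep, made by fat cells, measured 8.90 in R5838 and 6.40 in 15825, while stage IV values were 4.798 to 5.39. The Lep difference was -1.13 with all tumors and -0.31 without R5838 (unadjusted p = 0.154).

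**Figure D4:**
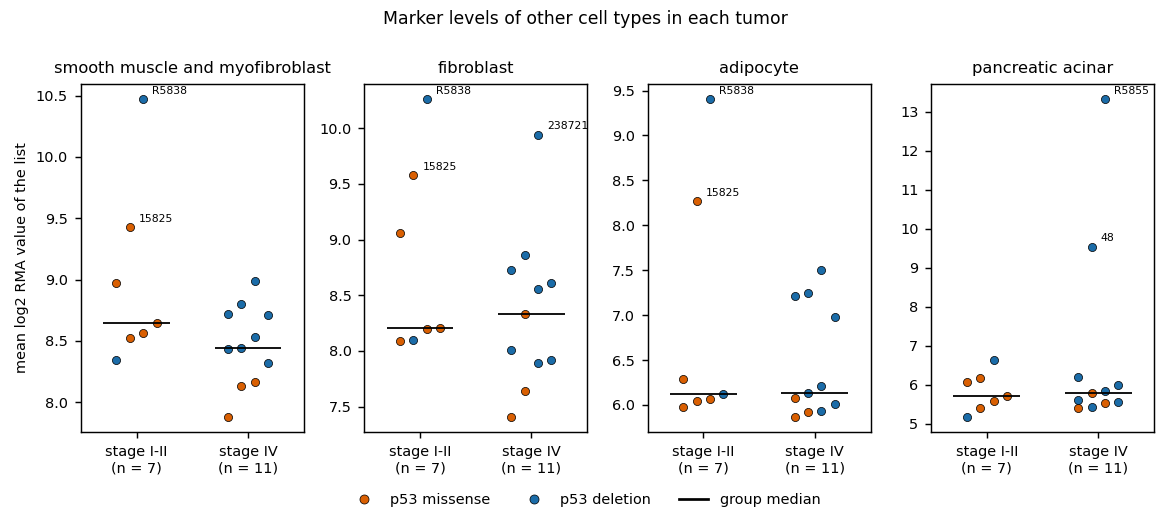
Mean log2 RMA value of a marker list (y axis) in each of 7 stage I-II and 11 stage IV tumors for 4 cell types, colored by p53 genotype, with a line at each group's median and names beside the outlying tumors. R5838 has the highest smooth muscle (10.47), fibroblast (10.26) and adipocyte (9.401) level, and R5855 and 48 have pancreatic acinar levels of 13.32 and 9.54 where all others are at most 6.62.

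Pancreatic acinar markers, digestive enzymes of the exocrine pancreas, stood high in 2 stage IV tumors. Their mean level was 13.32 in R5855 and 9.54 in 48, between 5.39 and 6.19 in the other stage IV tumors and between 5.18 and 6.62 in stage I-II. Cpb1, a carboxypeptidase of the pancreas, was 13.12 in R5855 and 9.35 in 48, and 4.31 to 4.58 in the early group. The list median was 0.51 with all tumors and -0.08 without 48 and R5855, and 0 of 8 members were under the unadjusted threshold with all tumors. Leaving out these 2 tumors, a choice also made after seeing the data, left 0 genes called in either direction. The part of these tissues in the leading genes was not tested beyond that.

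Lrrn4, a marker of mesothelium, ran from 6.84 to 10.48 with a median of 9.52 in stage IV and from 9.33 to 11.37 with a median of 10.31 in stage I-II, and differed by -1.63 (unadjusted p = 0.0118) with overlapping groups. The mesothelial list had a median of -0.20, with 3 of 9 members above 0. Its median was 0.03 within p53 missense and -0.62 within p53 deletion. Msln and Upk1b, at -1.23 and -1.08, were the other 2 of 9 mesothelial markers under the threshold, where 3.12% of all genes were lower, and both had their highest values in R5838. Without R5838 they were at -0.97 (unadjusted p = 0.151) and -0.75 (unadjusted p = 0.136), and Lrrn4 at -1.79. Hsd3b1, a steroid-producing enzyme, was at 5.09 to 6.34 in stage IV and 5.53 to 9.77 in stage I-II, the highest being R5843. Its difference was -1.77, which was -2.85 within p53 deletion and -0.85 within p53 missense. Of 13 granulosa, theca and luteal markers it was the only 1 under the threshold, and that list had a median of -0.22. The fatty acid receptor Cd36, from the lipid uptake list, was at 6.04 to 10.06 against 6.99 to 11.50 and differed by -1.64, again with its highest value in R5843. The lipid uptake and synthesis list itself had a median of -0.02, as all genes had, with 5 of 14 members above 0. Its median was -0.20 within p53 missense and 0.11 within p53 deletion.

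**Figure D5:**
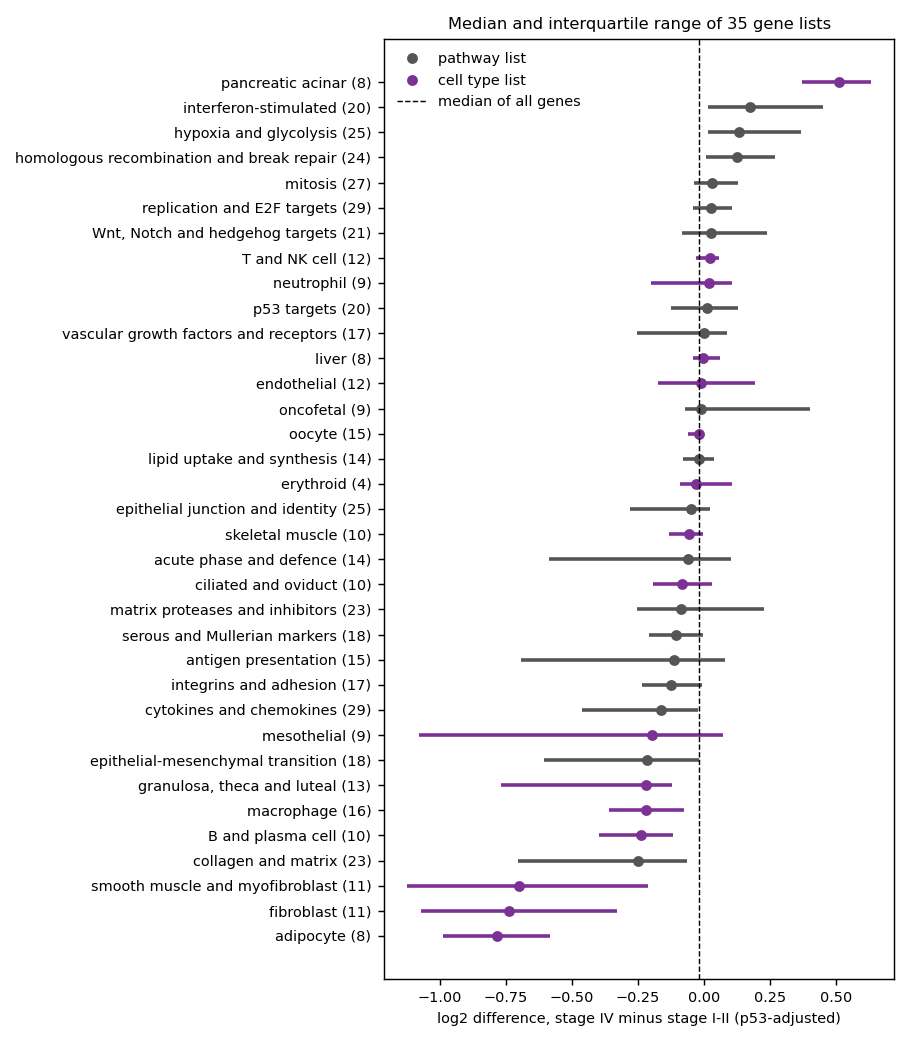
Median (point) and interquartile range (bar) of the log2 difference of stage IV minus stage I-II (x axis) over the measured members of each of 35 lists, with the number of members in brackets and a dashed line at the median of all genes, -0.02. Adipocyte, fibroblast and smooth muscle lists are lowest, at -0.78, -0.74 and -0.70, and pancreatic acinar is highest, at 0.51.

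The tumors left out of the comparison are given for some leading genes as a description. Ubr2 was at 9.97 and 10.19 in the 2 stage III tumors and 9.77 to 10.27 in the 6 unstaged tumors. Ecpas was at 10.74 and 11.22 in stage III, and Col3a1 at 9.54 and 12.43, both spanning most of the range of the 18 tumors.

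The 30 tumors of the new set, most of them grown after transplantation, gave a separate comparison of 9 stage IV and 9 stage I-II arrays, with Brca1 genotype and passaging as terms. All of these arrays were of p53-deletion tumors, so no p53-missense tumor entered. Brca1-deficient tumors were 3 of the 9 in stage IV and 6 of the 9 in stage I-II, the others being wild type. Primary tumors were 4 and 1, so stage was unbalanced over both terms. Tumor 30200 is in both sets. Passaged tumors descend from primary tumors, and the labels do not say which arrays share a donor, so the 18 arrays were fitted as if independent and p-values are too small where they share one. There 135 genes passed (0.742%), 54 higher and 81 lower in stage IV, and 3085 (17.0%) had an unadjusted p under 0.05. Without the terms 1 gene passed, among passaged tumors alone 2479, without the array of 30200 1034, and without a pair of near-identical arrays with unlike Brca1 labels 6. Of the 135 genes, 77 had the same sign in the primary tumors described above. An unadjusted p under 0.05 there was found for 10 of the 135, 8 of them with the same sign, and for 5.24% of all genes. The share of all genes with the same sign in both sets was not counted. Of the 24 leading genes, 16 had the same sign in the new set and 8 the opposite one, and 1 passed there, Senp7, at -0.70 (adjusted p = 0.0344 by limma). Adipocyte and fibroblast lists had medians of 0.81 and 0.33 there, opposite in sign to those of the primary tumors, and Col3a1 was at -0.24.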

How the data were processed

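RNA from frozen tumor pieces was amplified, labelled with biotin and hybridized to Affymetrix mouse arrays. The authors deposited log2 values made with RMA (version not given in the sources used here) for 45037 probe sets, and log2 values of a table merged with human samples, of which the 59 mouse columns served as an alternative while 278 further sample columns stayed unused. A probe table gave 34945 probe sets 1 symbol. Each of 18193 genes took its probe set with the highest mean, since 9010 had more than 1. Gene tests left aside 932 probe sets with more than 1 symbol and 9160 without any. Arrays give no counts, so their number limits the precision.

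Groups came from stage labels. Stage IV was compared with stage I-II in limma 3.58.1 (lmFit, eBayes; R 4.3.3) with p53 genotype as a covariate, two-sided, with Benjamini-Hochberg adjustment over all genes and a threshold of 0.05. The same was fitted within each p53 genotype, with an interaction term, and in the new set. The share of variance was tested by exact permutation in Python 3.11.15. Fits were tested on simulated data. Named genes were the 12 of smallest p in each direction, none of which passed, and Brca1, Brca2, Rb1, Krt18, Mki67 and Cdkn2a. Of 581 genes in 35 lists, 537 were measured and the others were not analysed here. The tumors and lists were chosen with earlier results of these data known. Alternatives changed covariates, filters, probe set summary, weights, variance model, table and tumors included.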

Additional observations from a re-analysis of the deposited data

Results flagged for a closer look

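In the stage I-II group, 4 of 65 values (30 named genes and the mean levels of 35 lists) had 1 tumor whose gap to the next was too large a part of the group's range by Dixon's 95% limit for 7 samples, and chance alone sets apart about 1 in 20. Tumor 15825 had a neutrophil marker level of 7.82, against 5.78 in the next early tumor. R5838 had a level of 7.62 for ciliated and oviduct markers, against 7.12. Tumor 23172 was set apart by 2 lists, with 8.69 for matrix proteases and inhibitors, against 8.17, and with 10.59 for replication and E2F targets, the lowest of the early tumors, against 10.90. The stage difference of 0 of the 30 named genes differed between p53 genotypes after adjustment.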

How the results depend on the processing

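Under all 33 alternatives to the comparison of stage IV with stage I-II tumors, 0 genes passed in either direction. Those that left out tumors by marker level were added after seeing the data. The 24 leading genes kept their direction in every alternative run, which their choice by small p in these same tumors favored. Their lowest adjusted p was 0.0680, for Ubr2 with stage as an ordered number. Brca1 changed sign, to -0.013 with stage as a number, -0.19 within p53 deletion and -0.062 without 48 and R5855, and from -0.14 to 0.19 with 1 tumor left out. Mki67 went to -0.014 with stage as a number, -0.30 within p53 deletion and from -0.0019 to 0.17 with 1 tumor left out. With 1 tumor left out Cdkn2a ran from -0.34 to 0.0064. The cause was not tested.

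Within p53 deletion, 4 genes passed with array weights and 1 in the merged table. Leaving out 1 tumor gave 0 to 42 there, 0 to 6 within p53 missense and 0 to 22 for the interaction. In the new set 85 passed in the merged table, where 5928 genes were tested, 1 without covariates, 2479 in passaged tumors, 6 without the near-identical pair and 1034 without 30200. The variance share ran from 5.61% to 7.58% without 1 tumor. No paired analysis was possible because the labels give each tumor an identifier and no replicate number, and numbers shared by the groups here are only running counts.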

Other observations

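The genes that passed within p53 deletion when R5838 was left out, so that R5843 alone stood for stage IB, were neighbors on 1 chromosome more often than not. All 24 were lower in stage IV, and 14 lie on chromosome 9 in the RefSeq annotation of GRCm38.p6, used here for gene order only. Of these, 13 fall between Adpgk and Dpp8, a stretch that also holds Arih1, Smad6, Map2k5, Map2k1 and Rab11a. How many of all genes lie on chromosome 9 was not counted. The stretch was picked after seeing these values and its bounds are genes that passed, so no test was made. Of its 53 measured genes, 40 (75.5%) had their highest value of the 18 tumors in R5843, where 5.83% of all genes did. Their median excess over the 17 other tumors was 1.12 on the log2 scale, against 0.04 over all genes. Both values include the genes that passed, which were picked by their high values in R5843. Of the 53 genes before the stretch, 9.43% were highest in R5843, with a median excess of 0.03. Of the 53 after it, 64.2% were, with a median excess of 0.67. Map2k1, a kinase of the MAPK cascade, was 12.66 in R5843 and 11.17 to 11.88 elsewhere, and Smad6, an inhibitor of BMP signaling, was 9.24 against 6.32 to 7.38. The median level of the stretch, relative to each gene's median, was 1.05 in R5843 and -0.17 to 0.06 in the others. Outside it, Rps4l was 10.92 in R5843 and 4.61 to 5.58 elsewhere, and Pcdh11x 9.21 against 4.44 to 5.38.

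The 42 genes that passed without R5843, so that R5838 stood alone, shared none with those 24. They included Mzb1, a gene of plasma cells, at 7.81 in R5838 and 4.98 to 5.94 elsewhere, and Pou2af1, a coactivator of B cells, at 8.01 against 4.02 to 5.78. Dynlrb2, a dynein chain of motile cilia, was 7.26 against 4.19 to 5.16. R5838 was also the only tumor of the 18 with no Brca allele in its label, and the 8 p53-deletion stage IV tumors were all Brca1-deficient. Stage, Brca genotype and this single tumor therefore cannot be told apart here. Of the 42, 41 were lower in stage IV, and the exception was Lsm12, at 7.43 in R5838 and 9.44 to 11.06 elsewhere.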
